A study of Arabidopsis thaliana with 24 samples.

Results

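Glucosinolate breakdown was followed through 8 genes of the deposited Arabidopsis table: the myrosinase genes TGG1 (AT5G26000) and TGG2 (AT5G25980), the modifier genes ESM1 (AT3G14210) and MVP1 (AT1G54030), the specifier protein genes ESP (AT1G54040), NSP1 (AT3G16400) and NSP5 (AT5G48180), and the myrosinase-binding protein gene MBP1 (AT1G52040). They were taken by gene identifier and are 8 of the 38088 genes in the table. The set was selected on measured values. These were the high ESM1 level in dcp5-1 and a rise of TGG2 in total RNA that polysomal RNA did not share in size. The differences of ESM1 between the genotypes and of TGG2 between T15 and T0 or between the fractions are therefore described here without a test. Within a genotype ESM1 was tested between times and fractions, and TGG2 was tested between genotypes within a fraction. The TGG2 tests and the dcp5-1 tests of ESM1 use levels behind their choice, so their p-values give no independent support. The study sequenced RNA of 5-day-old whole seedlings of Col-0 and of dcp5-1, a mutant of the mRNA decapping factor gene DCP5. All seedlings had first rested for 30 min in liquid medium. They then met 150 mM NaCl, a hypertonic stress, for 0 min (T0) or 15 min (T15), and total RNA and the RNA of pooled polysome fractions from a 10 to 50% sucrose gradient were taken. The groups were Col-0 and dcp5-1, each at T0 and at T15, each as total and as polysomal RNA, with 3 libraries in each of the 8 groups. The ecotype entries of the dcp5-1 samples carry a running number after Col, and these samples were placed by their genotype entry. Without a group kept in plain medium for 15 min, the salt, the transfer and the elapsed time cannot be told apart.

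Myrosinases are thioglucosidases that cut glucosinolates, the sulphur-containing defence compounds of the Brassicaceae, once tissue is damaged and enzyme and substrate meet. The unstable product turns into an isothiocyanate on its own, or into nitriles and epithionitriles when specifier proteins are present. In leaves, TGG1 and TGG2 are known from guard cells and from myrosin cells, which store myrosinase beside the veins. ESM1 is a lipase-like protein that favours isothiocyanates over nitriles, and Col-0 is known for little ESP activity.

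TGG1 and TGG2 lie in opposite directions on chromosome 5, 3674 bases apart with 2 short coding genes between them. In the TAIR10.1 annotation TGG1 spans 9079452 to 9082384 on the minus strand and TGG2 spans 9072708 to 9075777 on the plus strand. Their coding sequences were 82.2% identical over 1605 aligned bases, and the longest identical run, 55 bases, is shown because reads inside it could come from either gene. It lies at chr5:9074509-9074563 (plus strand) in TGG2 and at chr5:9080589-9080643 (minus strand) in TGG1, and is given 5′ to 3′ from the RefSeq genome.
TGG1 and TGG2, shared coding run: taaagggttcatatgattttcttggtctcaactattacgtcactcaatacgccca
Only 0.326% of the 50-base windows of the longest TGG1 transcript, and none of its 100-base windows, occurred in another gene. ESM1 (chromosome 3, 4729399 to 4731847, plus strand), MVP1 and NSP5 shared no 50-base window with any other gene. NSP1 shared 20.7% of its 100-base windows with other genes, most of them with its neighbour NSP4, to which its coding sequence was 95.0% identical, so the NSP1 values may hold reads of NSP4. MVP1 and ESP are neighbours on chromosome 1, 1030 bases apart. None of the 8 genes overlapped another annotated gene. The coding sequence of ESM1 was closer to that of the lipase-like gene GLL22 (72.6%) than to that of MVP1 (56.4%).

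The 250 bases before the annotated start of TGG1, TGG2 and ESM1 are shown because the 2 neighbouring myrosinase genes changed by different amounts in total RNA and ESM1 differed most between the genotypes. They come from the RefSeq TAIR10.1 genome, 5′ to 3′, with capitals for ACGTG or its reverse complement, the core of abscisic acid response and G-box elements, and for CANNTG, the E-box that basic helix-loop-helix factors bind. CANNTG is its own reverse complement, and CACGTG would be marked by both.
TGG1, chr5:9082385-9082634 (minus strand): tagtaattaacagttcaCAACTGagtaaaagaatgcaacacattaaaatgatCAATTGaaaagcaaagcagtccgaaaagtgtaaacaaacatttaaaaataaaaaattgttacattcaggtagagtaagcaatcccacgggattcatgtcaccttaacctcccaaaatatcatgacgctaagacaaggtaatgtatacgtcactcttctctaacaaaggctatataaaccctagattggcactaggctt
TGG2, chr5:9072458-9072707 (plus strand): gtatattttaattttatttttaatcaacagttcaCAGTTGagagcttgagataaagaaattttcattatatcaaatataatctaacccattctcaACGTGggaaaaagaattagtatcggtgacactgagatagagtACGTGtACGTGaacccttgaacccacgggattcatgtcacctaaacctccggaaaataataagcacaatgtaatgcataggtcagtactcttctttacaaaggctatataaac
ESM1, chr3:4729149-4729398 (plus strand): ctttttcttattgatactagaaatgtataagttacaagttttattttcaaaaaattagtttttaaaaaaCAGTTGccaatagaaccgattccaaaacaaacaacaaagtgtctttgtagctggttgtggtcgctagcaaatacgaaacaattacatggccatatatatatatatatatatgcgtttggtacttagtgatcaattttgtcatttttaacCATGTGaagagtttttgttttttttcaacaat
The TGG2 window held 3 ACGTG and 1 CANNTG, whereas the TGG1 and ESM1 windows held no ACGTG and 2 CANNTG each. Of 27443 such windows over the genome, 22.9% held ACGTG on either strand and 2.99% held at least 3, counting both strands of a CACGTG, and 55.3% held CANNTG. A match of letters is a description and does not show a binding site.

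The implied depth was between 14700000 and 19320000 fragments per library, and the 7 genes other than MBP1 rested on 112.8 to 46598 fragments in each. After counting error was taken off, the coefficient of variation of implied fragments between the 3 libraries of a group had a median between 0.287% (Col-0 polysomal RNA at T0) and 5.88% (Col-0 total RNA at T0). Libraries were not scaled to a common depth for it, so it also holds their differences in depth. With each pair of libraries scaled to each other, Col-0 total RNA at T0 had the highest mean chi-square per gene. It was 19.8 for its libraries 1 and 2, 9.77 for 2 and 3, and 5.34 for 1 and 3. Pairs of libraries of the other groups lay between 1.58 and 5.92. Calls of the 8 genes that changed without 1 library are given beside their values. Nothing in the labels says that the samples came from separate cultures, so p-values measure a spread that may be technical. In bulk seedling RNA, fewer cells of a type and less RNA per cell cannot be told apart. DCP5 lay between 13.0 and 21.5 FPKM in the dcp5-1 libraries and between 48.5 and 92.3 FPKM in the Col-0 libraries, so the mutant kept DCP5 transcript. Columns marked IP were read as polysomal RNA, which the table does not state, and a swap would turn the sign of every fraction ratio. FPKM values are relative within a library. With organelle-encoded genes left out of the scaling, the median of all genes moved by 0.23 (log2) for T15 against T0 in Col-0 total RNA, by 0.18 for dcp5-1 against Col-0 at T0 in total RNA, by 0.13 in polysomal RNA at T0, and by -0.19 for the difference between the genotypes' changes in total RNA. For polysomal against total RNA at T15 it moved by -0.21 in Col-0 and -0.16 in dcp5-1. For the polysomal change less the total change it moved by -0.20 in Col-0 and -0.11 in dcp5-1.

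TGG1, the myrosinase gene with the higher level in every library, was higher at T15 than at T0 in both genotypes and both fractions, and higher in dcp5-1 than in Col-0 in all 4 settings. In Col-0 total RNA it lay at 418, 431 and 445 FPKM at T0 and at 571, 553 and 586 FPKM at T15. In dcp5-1 total RNA it lay at 513, 485 and 519 FPKM at T0 and at 810, 805 and 793 FPKM at T15. The T15 libraries thus stood above all T0 libraries of their genotype, and the dcp5-1 libraries above all Col-0 libraries of their time. The change in total RNA was 0.40 ± 0.04 in Col-0 (SE on the log2(FPKM + 1) scale, 3 against 3 libraries; limma, adjusted p = 7.1e-08) and 0.67 ± 0.04 in dcp5-1 (adjusted p = 3.7e-11). The difference of these changes was 0.27 ± 0.06 (adjusted p = 0.0038), but 0.035 with organelle-encoded genes left out of the scaling (adjusted p = 0.68). That scaling gave 0.68 for the Col-0 change.

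Polysomal TGG1 held 1262, 1186 and 1241 FPKM in Col-0 at T0 and 1302, 1428 and 1403 FPKM at T15, and in dcp5-1 1385, 1450 and 1435 FPKM at T0 and 1757, 1786 and 1795 FPKM at T15. The groups of 1 genotype did not overlap. Their changes were smaller than in total RNA, 0.16 ± 0.04 in Col-0 (limma, adjusted p = 0.0074) and 0.32 ± 0.04 in dcp5-1 (adjusted p = 9.5e-06). Polysome association, the polysomal change less the total change, fell by 0.24 ± 0.06 in Col-0 (adjusted p = 0.0043) and by 0.35 ± 0.06 in dcp5-1 (adjusted p = 0.00028). With values corrected for transcript length and GC content, the Col-0 value was -0.12 (adjusted p = 0.10). Against Col-0, dcp5-1 was higher by 0.23 ± 0.04 at T0 and 0.49 ± 0.04 at T15 in total RNA, and by 0.21 ± 0.04 and 0.37 ± 0.04 in polysomal RNA (adjusted p of at most 0.00057). Both T0 values grew, to 0.44 and 0.37, with organelle-encoded genes left out of the scaling.

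TGG2, the second leaf myrosinase gene, was one of the transcripts with the largest positive T15 against T0 values in total RNA, while its polysomal level was already high at T0. Col-0 total RNA held 19.2, 18.2 and 19.8 FPKM at T0 and 80.2, 80.2 and 84.6 FPKM at T15, a ratio of means of 4.28. In dcp5-1 total RNA the values were 18.0, 15.1 and 17.4 FPKM at T0 and 122, 124 and 115 FPKM at T15, a ratio of 7.15. Among 20964 genes ordered by this difference, TGG2 stood at position 24 in Col-0 and 12 in dcp5-1. Polysomal RNA held 76.4, 71.9 and 73.3 FPKM at T0 and 80.4, 86.1 and 81.7 FPKM at T15 in Col-0, a ratio of 1.12. In dcp5-1 it held 97.5, 93.7 and 95.1 FPKM at T0 and 143, 137 and 136 FPKM at T15, a ratio of 1.46, and the libraries of both times stood apart in either genotype. The polysomal level was 3.87 times the total level at T0 in Col-0 and 5.67 times in dcp5-1, and 1.01 and 1.15 times at T15. The last 2 ratios moved to the other side of 1 on the log2 scale in other settings, to -0.24 in Col-0 with organelle-encoded genes left out of the scaling or with length and GC corrected, and to -0.13 in dcp5-1 with that correction.

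**Figure D1:**
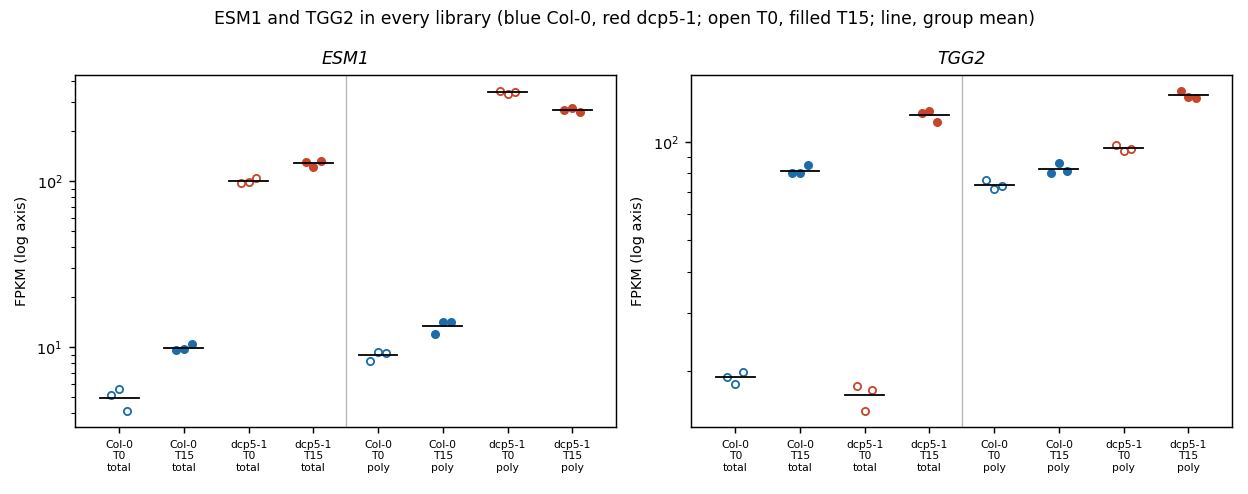
ESM1 and TGG2 levels (FPKM, log axis) in each of the 24 libraries, by genotype, time and fraction, with open points for T0, filled points for T15 and lines for group means (n = 3). All ESM1 points of dcp5-1 lie above all those of Col-0, and the T0 points of TGG2 in total RNA lie below all its other points.

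The genotype comparison of TGG2 was not the contrast that led to its choice. It uses levels behind that choice in both fractions, so its p-values give no independent support. TGG2 was higher in dcp5-1 in 3 of the 4 settings. At T15 dcp5-1 exceeded Col-0 by 0.55 ± 0.05 in total RNA (limma, adjusted p = 2.6e-08) and by 0.74 ± 0.05 in polysomal RNA (adjusted p = 3.0e-10), and at T0 by 0.37 ± 0.05 in polysomal RNA (adjusted p = 8.8e-06). At T0 in total RNA it was lower by 0.17 ± 0.05 (-0.17, adjusted p = 0.010), a call that did not hold without library 2 of dcp5-1 (-0.10, adjusted p = 0.11) or library 3 of Col-0 (-0.15, adjusted p = 0.051), nor with length and GC corrected (-0.085, adjusted p = 0.20) or in a fit of only the groups compared (adjusted p = 0.12). It turned to 0.031 with organelle-encoded genes left out of the scaling. The polysomal minus total difference of TGG2 was larger in dcp5-1 by 0.54 ± 0.08 at T0 and by 0.19 ± 0.08 at T15, values that rest on the levels behind its choice and are given as a description.

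The ratio of both myrosinase transcripts fell from T0 to T15 in total RNA of both genotypes, and less so in polysomal RNA of dcp5-1. TGG1 exceeded TGG2 by a factor of 22.6 ± 0.95 in Col-0 total RNA at T0 (SD, n = 3) and 6.98 ± 0.13 at T15, and of 30.1 ± 1.9 and 6.68 ± 0.22 in dcp5-1. In polysomal RNA the factor was 16.6 ± 0.24 at T0 and 16.7 ± 0.50 at T15 in Col-0, and 14.9 ± 0.65 and 12.8 ± 0.49 in dcp5-1, where the libraries of T0 and T15 did not overlap. These ratios contain the TGG2 values that led to its choice and were not tested.

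**Figure D2:**
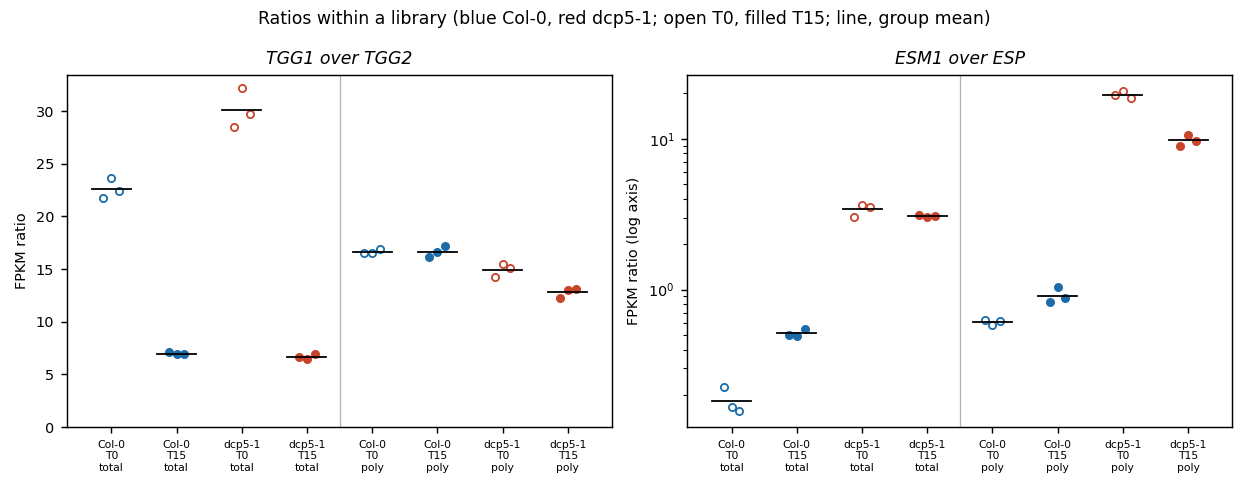
Ratios of FPKM within each of the 24 libraries, TGG1 over TGG2 (left, linear axis from 0) and ESM1 over ESP (right, log axis), with lines for group means (n = 3). The TGG1 over TGG2 ratio of total RNA lies between 21.8 and 32.2 at T0 and between 6.50 and 7.12 at T15, and ESM1 over ESP is above 3.01 in every dcp5-1 library and at most 1.04 in every Col-0 library.

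ESM1, which promotes isothiocyanate over nitrile formation, was the gene with the widest range of the 8, with group means from 4.95 to 342 FPKM. Col-0 total RNA held 5.15, 5.57 and 4.13 FPKM at T0 and 9.61, 9.70 and 10.5 FPKM at T15. In dcp5-1 total RNA the levels were 97.5, 98.1 and 104 FPKM at T0 and 131, 121 and 133 FPKM at T15. The ratios of dcp5-1 to Col-0 means were 20.2 at T0 and 12.9 at T15, with no overlap of libraries. Polysomal RNA held 8.31, 9.33 and 9.18 FPKM at T0 and 12.0, 14.1 and 14.2 FPKM at T15 in Col-0. In dcp5-1 it held 350, 334 and 342 FPKM at T0 and 266, 273 and 260 FPKM at T15, ratios of 38.2 and 19.8 over Col-0. In these 4 settings ESM1 stood between positions 5 and 11 among 20964 genes ordered by the difference.

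Within a genotype ESM1 could be tested for NaCl, although the dcp5-1 tests, also those between the fractions, use levels behind its choice. In Col-0 it rose by 0.88 ± 0.07 in total RNA (limma, adjusted p = 5.5e-10; 0.59 with a pseudocount of 5 FPKM) and by 0.54 ± 0.07 in polysomal RNA (adjusted p = 6.0e-06). In dcp5-1 it rose by 0.36 ± 0.07 in total RNA (adjusted p = 0.00026) and fell by 0.36 ± 0.07 in polysomal RNA (adjusted p = 0.00062). The T15 libraries did not overlap the T0 libraries in any of these. Polysome association fell by 0.35 ± 0.10 in Col-0 (adjusted p = 0.0089) and by 0.72 ± 0.10 in dcp5-1 (adjusted p = 1.7e-05). The Col-0 call ended with a pseudocount of 5 FPKM (-0.19, adjusted p = 0.057) and in a fit of only the groups compared (adjusted p = 0.058). The polysomal level exceeded the total level by 0.75 ± 0.07 at T0 and 0.40 ± 0.07 at T15 in Col-0, and by 1.76 ± 0.07 and 1.05 ± 0.07 in dcp5-1 (adjusted p of at most 6.4e-05). For Col-0 these were 0.49 at T0 with a pseudocount of 5 FPKM and 0.16 at T15 with organelle-encoded genes left out of the scaling.

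The genes beside ESM1 on chromosome 3 did not share its genotype difference in size. Of the 5 annotated coding genes on each side, 8 passed the filter, and at T0 in total RNA their log2 differences between dcp5-1 and Col-0 lay between -0.60 (AT3G14240) and 0.23 (AT3G14200), against 4.09 for ESM1. AT3G14220, the next gene downstream and 59.8% identical to ESM1 in coding sequence, had means of 17.6 FPKM in Col-0 and 19.3 FPKM in dcp5-1. The ratio of ESM1 to ESP, whose products act in opposite directions on nitrile formation, was 0.183 ± 0.038 in Col-0 and 3.40 ± 0.34 in dcp5-1 total RNA at T0, and 0.613 ± 0.024 and 19.7 ± 1.1 in polysomal RNA (SD, n = 3).

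**Figure D3:**
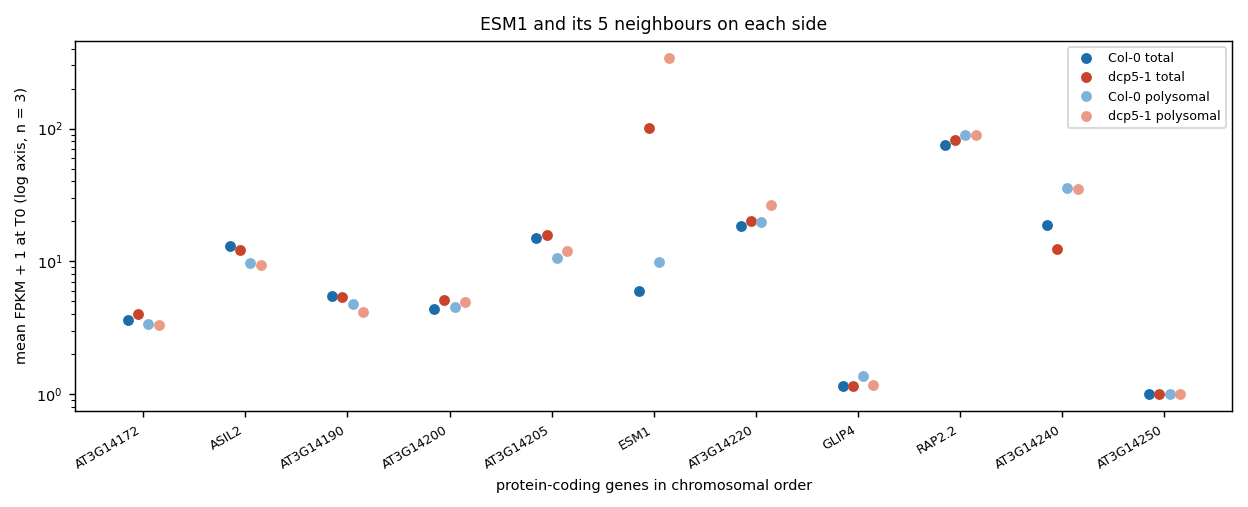
Mean levels at T0 (FPKM + 1, log axis, n = 3 libraries) of ESM1 and of the 5 annotated coding genes on each side, in chromosomal order, for both genotypes and fractions. ESM1 is at 4.95 against 99.9 FPKM in total RNA and 8.94 against 342 FPKM in polysomal RNA (Col-0 against dcp5-1). No neighbour differs as much between the genotypes, although AT3G14240 runs from 11.4 to 34.4 FPKM over genotypes and fractions.

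The genes most like ESM1 over the 8 group means, among 10272 nuclear genes with a mean of at least 10 FPKM, were HCF152, AT1G27030, APS4, AT5G24060 and AT4G22755, with Pearson's r from 0.981 to 0.990. Their range was far narrower, as for HCF152, from 7.49 to 14.9 FPKM. For TGG2 they were AT3G13930, ZAR1, emb1138, FUG1 and AT2G36630, with r from 0.986 to 0.995. FUG1, which encodes a plastid translation initiation factor, had 39.7 and 77.4 FPKM in Col-0 total RNA at T0 and T15 and 64.4 and 74.3 FPKM in polysomal RNA. The 8 points share libraries and scaling, and so many genes were ranked that high values of r occur for any pattern.

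MVP1, a lipase-like protein of the endoplasmic reticulum that associates with TGG2, rose with NaCl in Col-0 total RNA, and its level was higher in dcp5-1 throughout. Col-0 total RNA held 23.6, 20.8 and 20.9 FPKM at T0 and 28.5, 27.6 and 28.1 FPKM at T15, a rise of 0.35 ± 0.05 (limma, adjusted p = 5.7e-07; 0.62 with organelle-encoded genes left out of the scaling). In dcp5-1 total RNA it was 29.8, 33.2 and 31.9 FPKM at T0 and 31.6, 32.4 and 32.4 FPKM at T15, with overlap and a difference of 0.022 ± 0.046 (adjusted p = 0.71). The difference of the changes was -0.33 ± 0.06 (adjusted p = 0.00071; -0.55 in that scaling). Polysomal levels ran from 44.8 to 47.8 FPKM in Col-0 and from 52.9 to 55.4 FPKM in dcp5-1, and neither genotype passed the test there (adjusted p = 0.60 and 0.79). MVP1 was higher in dcp5-1 in all 4 settings, by 0.52 ± 0.05 and 0.19 ± 0.05 in total RNA at T0 and T15 and by 0.24 ± 0.05 and 0.25 ± 0.05 in polysomal RNA (adjusted p of at most 0.0017; 0.39 for polysomal RNA at T0 in that scaling). Its polysome association fell with NaCl in Col-0, by 0.39 ± 0.06 (adjusted p = 4.4e-05; -0.63 in that scaling), and was -0.041 ± 0.065 in dcp5-1 (adjusted p = 0.69). The difference between the genotypes, 0.35 ± 0.09 (adjusted p = 0.026), did not hold without library 2 of dcp5-1 total RNA at T0 (0.31, adjusted p = 0.051), without library 1 of Col-0 polysomal RNA at T0 (0.32, adjusted p = 0.053) or with length and GC corrected (0.33, adjusted p = 0.054). At T0 its association was lower in dcp5-1 by 0.28 ± 0.06 (-0.28, adjusted p = 0.0071), which did not pass in a fit of only the groups compared (adjusted p = 0.060).

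ESP, the epithiospecifier protein that directs the breakdown towards nitriles, fell with NaCl in Col-0 total RNA and rose in dcp5-1. Col-0 total RNA held 22.8, 33.7 and 26.4 FPKM at T0 and 19.3, 19.6 and 19.1 FPKM at T15, and dcp5-1 total RNA held 32.4, 26.9 and 29.5 FPKM at T0 and 42.1, 40.2 and 43.2 FPKM at T15. The T15 libraries lay below all T0 libraries in Col-0 and above them in dcp5-1. ESP fell by 0.48 ± 0.10 in Col-0 (limma, adjusted p = 0.00029; -0.21 with organelle-encoded genes left out of the scaling, adjusted p = 0.037) and rose by 0.49 ± 0.10 in dcp5-1 (adjusted p = 0.00028). The difference of the changes was 0.97 ± 0.14 (adjusted p = 4.6e-05).

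In polysomal RNA ESP held 13.2, 15.9 and 14.8 FPKM at T0 and 14.5, 13.6 and 16.2 FPKM at T15 in Col-0, with overlap (0.016 ± 0.10, limma, adjusted p = 0.93). In dcp5-1 it held 18.0, 16.0 and 18.3 FPKM at T0 and 29.5, 25.7 and 26.9 FPKM at T15, a rise of 0.62 ± 0.10 (adjusted p = 6.1e-05). The difference between the genotypes was 0.60 ± 0.14 (adjusted p = 0.0080). ESP was higher in dcp5-1 at T15, by 1.07 ± 0.10 in total RNA (adjusted p = 1.7e-08) and 0.85 ± 0.10 in polysomal RNA (adjusted p = 5.9e-07). At T0 neither difference passed, 0.11 ± 0.10 in total RNA (adjusted p = 0.39) and 0.24 ± 0.10 in polysomal RNA (adjusted p = 0.056). The total RNA value passed with organelle-encoded genes left out of the scaling (0.32, adjusted p = 0.0036) and without library 2 of Col-0 total RNA at T0 (0.26, adjusted p = 0.022). The polysomal value passed in that scaling (0.39, adjusted p = 0.00068), in 3 other settings (adjusted p = 0.010 to 0.044) and without 4 single libraries, 1 and 2 of Col-0 total RNA (0.24 each, adjusted p = 0.026 and 0.016), 2 of Col-0 polysomal RNA (0.30, adjusted p = 0.036) and 2 of dcp5-1 polysomal RNA (0.30, adjusted p = 0.038), all at T0. ESP association rose in Col-0 by 0.49 ± 0.14 (adjusted p = 0.0077), or 0.25 in that scaling (adjusted p = 0.088).

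NSP1, known as the main nitrile specifier protein of Col-0 leaves, was higher at T15 in dcp5-1 total RNA. It held 182, 161 and 175 FPKM at T0 and 218, 272 and 271 FPKM at T15, a rise of 0.55 ± 0.10 (limma, adjusted p = 0.00014). In Col-0 it held 156, 196 and 213 FPKM at T0 and 189, 206 and 205 FPKM at T15, with overlap (0.099 ± 0.10, adjusted p = 0.42), although this passed with organelle-encoded genes left out of the scaling (0.38, adjusted p = 0.0028). The difference of the changes was 0.45 ± 0.15 (adjusted p = 0.031). It fell to 0.22 in that scaling (adjusted p = 0.25) and missed the threshold in a fit of only the groups compared (adjusted p = 0.060) and without any 1 of 6 libraries of total RNA. These were libraries 2 (0.41, adjusted p = 0.084) and 3 (0.35, adjusted p = 0.089) of Col-0 at T0, 1 of Col-0 at T15 (0.41, adjusted p = 0.070), 2 of dcp5-1 at T0 (0.40, adjusted p = 0.077), and 2 (0.39, adjusted p = 0.080) and 3 (0.40, adjusted p = 0.082) of dcp5-1 at T15. At T15 NSP1 was higher in dcp5-1 by 0.34 ± 0.10 in total RNA (adjusted p = 0.011) and 0.31 ± 0.10 in polysomal RNA (adjusted p = 0.019). Neither passed without 1 of 2 libraries, 2 or 3 of dcp5-1 in total RNA (0.28 each, adjusted p = 0.057 and 0.056), and 2 of Col-0 (0.24, adjusted p = 0.098) or 1 of dcp5-1 (0.22, adjusted p = 0.12) in polysomal RNA. The polysomal changes with NaCl were -0.047 ± 0.10 in Col-0 and 0.23 ± 0.10 in dcp5-1, and neither passed (adjusted p = 0.78 and 0.11).

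NSP5, another nitrile specifier protein gene, was lower in dcp5-1 than in Col-0 in 3 of the 4 settings. Total RNA held 51.6, 52.7 and 52.6 FPKM in Col-0 and 38.4, 36.6 and 37.2 FPKM in dcp5-1 at T0, and 52.5, 57.2 and 49.6 FPKM against 46.8, 43.8 and 42.1 FPKM at T15. No dcp5-1 library reached a Col-0 library of its time. The genotype difference was -0.48 ± 0.06 at T0 (limma, adjusted p = 5.2e-07; -0.26 with organelle-encoded genes left out of the scaling) and -0.26 ± 0.06 at T15 (adjusted p = 0.00070). In polysomal RNA it was -0.34 ± 0.06 at T0 (adjusted p = 5.3e-05; -0.18 in that scaling) and 0.022 ± 0.057 at T15 (adjusted p = 0.79). With NaCl NSP5 rose in dcp5-1 total RNA by 0.24 ± 0.06 (adjusted p = 0.0013), and in Col-0 total RNA the change was 0.020 ± 0.057 (adjusted p = 0.78), or 0.29 in that scaling (adjusted p = 0.00034). Polysomal NSP5 went from 87.3, 97.8 and 89.8 FPKM to 77.0, 74.2 and 82.1 FPKM in Col-0 and from 72.1, 71.5 and 73.5 FPKM to 84.3, 74.1 and 78.7 FPKM in dcp5-1. It fell by 0.23 ± 0.06 in Col-0 (adjusted p = 0.0031), and in dcp5-1 the change was 0.12 ± 0.06 (adjusted p = 0.10; 0.17 and adjusted p = 0.047 without library 2 of dcp5-1 at T15). The difference of the polysomal changes was 0.36 ± 0.08 (adjusted p = 0.0059), or 0.24 in that scaling (adjusted p = 0.092). In total RNA it was 0.22 ± 0.08 (adjusted p = 0.054), which passed without library 2 of Col-0 total RNA at T15 (0.27, adjusted p = 0.020), library 3 of dcp5-1 total RNA at T15 (0.25, adjusted p = 0.042), or any 1 of 3 polysomal libraries (0.22, adjusted p = 0.046 to 0.048), namely 2 of Col-0 at T0 and 1 and 2 of dcp5-1 at T15.

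The association of NSP5 fell with NaCl in Col-0 by 0.25 ± 0.08 (limma, adjusted p = 0.014; -0.20 and adjusted p = 0.053 without library 2 of Col-0 total RNA at T15; -0.49 with organelle-encoded genes left out of the scaling). At T15 it was higher in dcp5-1 by 0.28 ± 0.08 (adjusted p = 0.025). That call ended in a fit of only the groups compared (adjusted p = 0.056) and without any 1 of 5 libraries at T15, 2 of Col-0 total RNA (0.23, adjusted p = 0.077), 2 (0.27, adjusted p = 0.051) and 3 (0.25, adjusted p = 0.076) of dcp5-1 total RNA, 2 of Col-0 polysomal RNA (0.25, adjusted p = 0.069) and 1 of dcp5-1 polysomal RNA (0.23, adjusted p = 0.076). The association of NSP1 fell short of the threshold in dcp5-1 (-0.32 ± 0.15, adjusted p = 0.12), and passed without library 1 of dcp5-1 total RNA at T15 (-0.42, adjusted p = 0.038) or with organelle-encoded genes left out (-0.45, adjusted p = 0.024). In Col-0 it was -0.15 ± 0.15 (adjusted p = 0.45), or -0.39 in that scaling (adjusted p = 0.030).

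MBP1, a lectin-like protein that binds myrosinase and is best known from seeds and flowers, was close to the limit of detection and did not pass the filter of 1 FPKM in 3 libraries. It had 0.277, 0.276 and 0.463 FPKM in Col-0 total RNA at T0 and 0.679, 0.883 and 0.782 FPKM at T15. In dcp5-1 the values were 0.0373, 0.0723 and 0.0731 FPKM at T0, about 1 to 2 fragments in a library, and 0.423, 0.249 and 0.360 FPKM at T15. In polysomal RNA it ran from 0.710 to 1.32 FPKM in Col-0, and in dcp5-1 from 0.160 to 0.191 FPKM at T0 and from 0.591 to 0.797 FPKM at T15. The T0 libraries of dcp5-1 were the lowest in each fraction, at or near the 0.104 to 0.137 FPKM that 3 fragments were worth. No test was made, and the fragment numbers cover counting error only.

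**Figure D4:**
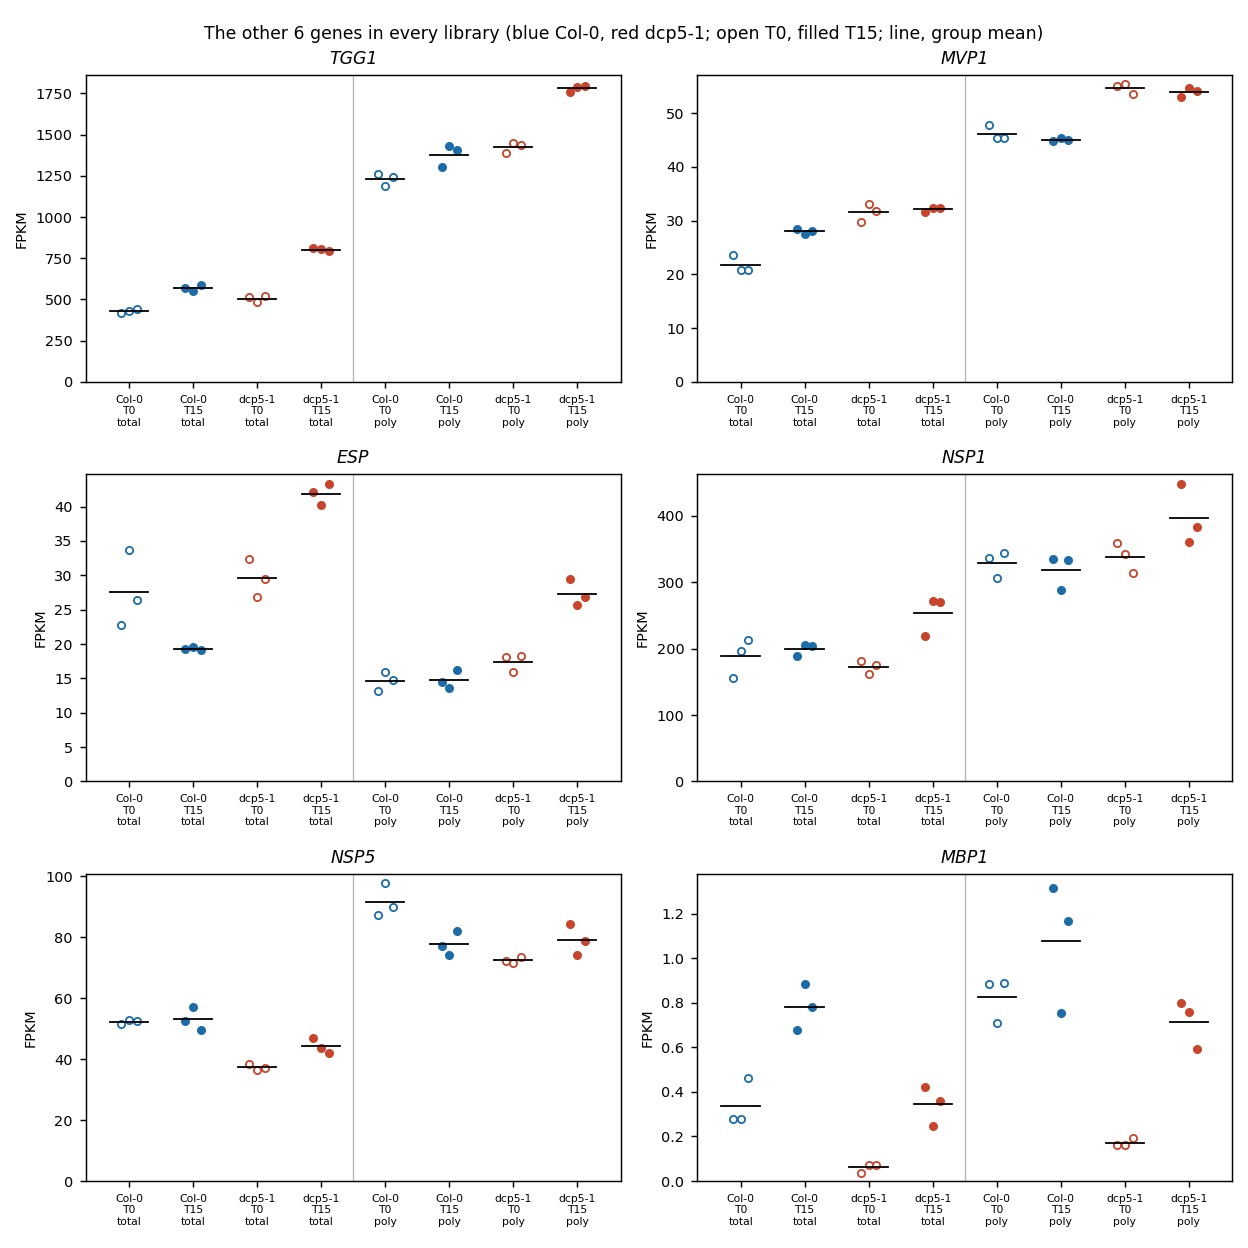
Levels (FPKM, linear axes from 0) of TGG1, MVP1, ESP, NSP1, NSP5 and MBP1 in each of the 24 libraries, with open points for T0, filled points for T15 and lines for group means (n = 3). The total RNA points of ESP go down with NaCl in Col-0 and up in dcp5-1, and NSP5 at T0 is lower in dcp5-1 than in Col-0.

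Polysomal levels set ESP apart from the other tested genes. TGG1, ESM1, MVP1, NSP1 and NSP5 were higher in polysomal than in total RNA in both genotypes at both times, and ESP was lower each time. Of all genes, 35.3% were higher and 36.0% lower in Col-0 at T0, 31.6% and 29.8% at T15, and in dcp5-1 34.9% and 36.3% at T0 and 33.6% and 32.8% at T15, so that a call alone says little here. ESP was lower by 0.86 ± 0.10 at T0 and 0.37 ± 0.10 at T15 in Col-0, and by 0.73 ± 0.10 and 0.60 ± 0.10 in dcp5-1 (limma, -0.86, -0.37, -0.73 and -0.60, adjusted p of at most 0.0032). The Col-0 value at T15 was -0.61 with organelle-encoded genes left out of the scaling and -0.63 with length and GC corrected. TGG1 had the largest differences of the 5 at T0 in Col-0, 1.51 ± 0.04, and ESM1 in dcp5-1, 1.76 ± 0.07. The dcp5-1 values of ESM1 use levels behind its choice. NSP1 had 0.81 ± 0.10 at T0 and 0.67 ± 0.10 at T15 in Col-0 and 0.96 ± 0.10 and 0.64 ± 0.10 in dcp5-1, values that fell to 0.40, 0.38, 0.51 and 0.27 with length and GC corrected. At T15 in Col-0 the differences of MVP1 (0.66 ± 0.05), NSP1 and NSP5 (0.54 ± 0.06) were 0.41, 0.41 and 0.29 with organelle-encoded genes left out.

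**Figure D5:**
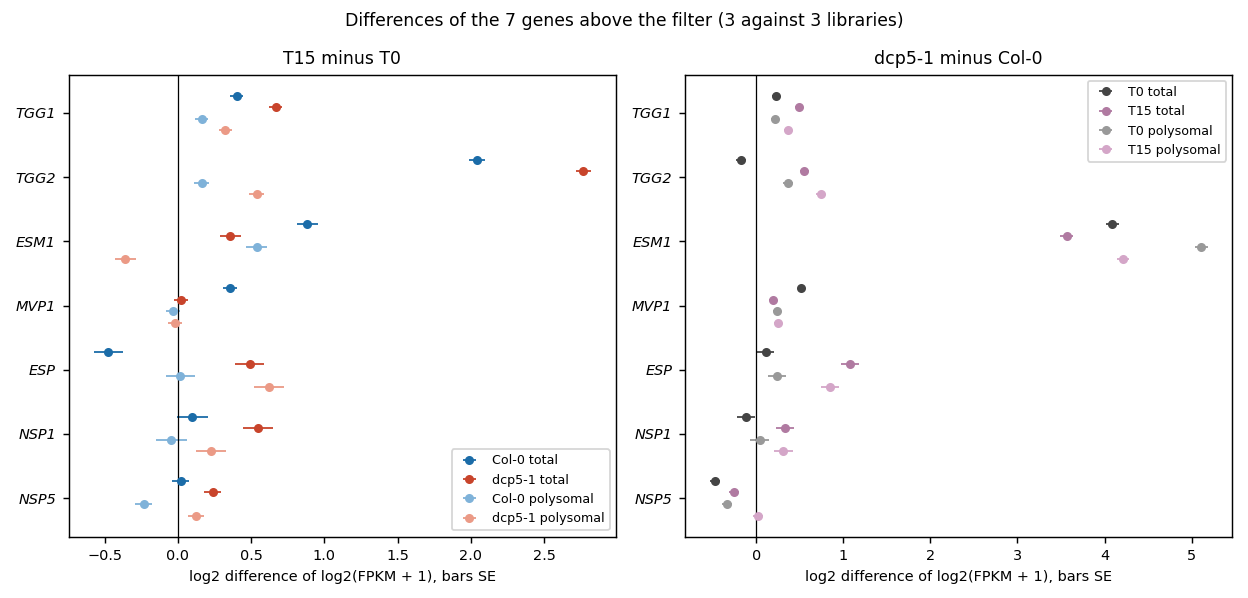
Differences on the log2(FPKM + 1) scale with standard errors (3 against 3 libraries, spread pooled over the 8 groups) for the 7 genes that passed the filter, T15 minus T0 (left) and dcp5-1 minus Col-0 (right). TGG2 at T15 in total RNA (2.04 and 2.77) and ESM1 in dcp5-1 (3.56 to 5.11) stand far to the right, and ESP has points on both sides of 0 at left.

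Counted over the tested members, the shares are read against those of all 20964 genes. With NaCl in Col-0 total RNA, 3 of 6 rose (33.2% of all genes did) and 1 fell (32.4%), or 5 and 1 with organelle-encoded genes left out of the scaling. In dcp5-1 total RNA 5 of 6 rose (29.0%). In polysomal RNA 2 of 6 rose in Col-0 (15.6%) and 1 fell (17.1%), and in dcp5-1 2 rose (17.2%) and 1 fell (15.5%). Between the genotypes, 4 of 6 differed in total RNA at T0 (48.1% of all genes did), 2 higher and 2 lower in dcp5-1, or 3 and 1 in that scaling. At T15 6 of 6 differed (50.0%), 5 higher and 1 lower. In polysomal RNA 4 of 6 differed at T0 (45.9%), 3 higher and 1 lower, and 5 of 6 at T15 (44.7%), each higher. The TGG2 calls between genotypes in both fractions use levels behind its choice. So do the ESM1 calls in dcp5-1 among the NaCl and association counts. The NaCl change in total RNA was higher in dcp5-1 for 3 of 5 (16.9%) and lower for 1 (8.34%), or 1 and 1 in that scaling, and in polysomal RNA it was higher for 2 of 5 (6.49%). Association with NaCl rose for 1 of 6 in Col-0 (22.8%) and fell for 4 (21.5%), with 5 falling in that scaling, and it fell for 2 of 6 in dcp5-1 (14.0%). At T0 it was higher in dcp5-1 for 1 of 6 (7.73%), which is TGG2 and no independent call, and lower for 1 (3.14%), and at T15 higher for 1 (7.48%). Its NaCl change was higher in dcp5-1 for 1 of 5 (1.95%). These comparisons share libraries and are not independent of each other.

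Other genes of glucosinolate breakdown also moved in both directions. Of 37 listed genes 33 passed the filter. In Col-0 total RNA 18 rose and 6 fell with NaCl (33.2% and 32.4% of all genes), with a median of 0.33 against 0.01 for all genes, or 25 and 4 with organelle-encoded genes left out of the scaling. In dcp5-1 25 rose and 4 fell (29.0% and 26.8% of all genes), with a median of 0.40. In polysomal RNA 9 rose and 8 fell in Col-0 (15.6% and 17.1%), and 16 rose and 4 fell in dcp5-1 (17.2% and 15.5%; 9 and 8 genes in that scaling). Between the genotypes in total RNA, 9 were higher and 13 lower in dcp5-1 at T0 (15 and 8 in that scaling), where 48.1% of all genes differed, and 10 were higher and 12 lower at T15 (50.0%). In polysomal RNA 12 were higher and 11 lower at T0 (45.9%; 15 and 7 genes in that scaling), and 15 were higher and 8 lower at T15 (44.7%). The counts by role that follow rest on 2 to 9 genes each and are to be read against the same shares of all genes.

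Among 9 other myrosinases and beta-glucosidases that were tested, 5 rose and 1 fell in Col-0 total RNA (7 rose in the scaling without organelle-encoded genes) and 8 rose in dcp5-1 (7 rose and 1 fell with length and GC corrected). BGLU18, which releases abscisic acid from its glucose ester, rose from 4.62 to 24.7 FPKM in dcp5-1 (2.19 ± 0.05, limma, adjusted p = 6.9e-19) and from 21.1 to 34.1 FPKM in Col-0 (0.67 ± 0.05, adjusted p = 7.4e-11), a difference of 1.52 ± 0.07 (adjusted p = 8.6e-12). At T0 it was lower in dcp5-1 by 1.97 ± 0.05 (-1.97, adjusted p = 6.4e-18). PEN2, an atypical myrosinase of pathogen defence, was also lower at T0, with 15.3 against 32.7 FPKM (-1.05 ± 0.05, adjusted p = 4.5e-13). PYK10, the beta-glucosidase of root ER bodies, was higher in dcp5-1 by 0.33 ± 0.05 (adjusted p = 1.1e-05; 0.55 with organelle-encoded genes left out of the scaling). TGG3, which is known as a pseudogene in Col-0, and BGLU36 were listed at 0 in all libraries.

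GLL22, the lipase-like gene closest to ESM1 of those compared, rose in Col-0 total RNA from 18.8 to 48.5 FPKM (1.32 ± 0.06, limma, adjusted p = 6.9e-14). Its association with polysomes fell by 1.63 ± 0.09 (adjusted p = 1.2e-11). In dcp5-1 total RNA it rose from 31.0 to 61.8 FPKM (0.98 ± 0.06, adjusted p = 1.7e-11). Of 3 ESM1-like and MVP1-like lipases 2 were higher in dcp5-1 at T0 in total RNA, GLL22 by 0.69 ± 0.06 and AT1G54010 by 0.43 ± 0.05 (adjusted p of at most 8.1e-07; 0.64 for AT1G54010 with organelle-encoded genes left out). Both lie beside MVP1 and ESP on chromosome 1. Among the other nitrile specifier proteins, NSP3 fell in Col-0 total RNA from 3.01 to 1.47 FPKM (-0.71 ± 0.17, adjusted p = 0.0011; -0.31 with a pseudocount of 5 FPKM). Its coding sequence was 92.2% identical to that of NSP1, which had a mean of 188 FPKM there at T0. The NSP3 values may thus hold reads of NSP1.

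Of 7 myrosinase-binding proteins and jacalin lectins 4 rose and 3 fell in Col-0 total RNA. JAL34 rose by 0.60 ± 0.05 (limma, adjusted p = 7.0e-10; 0.33 with length and GC corrected), whereas JAL33 fell from 436 to 237 FPKM (-0.87 ± 0.05, adjusted p = 3.8e-12). PBP1, a scaffold for PYK10, was higher in dcp5-1 at T0, with 844 against 519 FPKM (0.71 ± 0.06, adjusted p = 6.0e-09). Of 3 nitrilases 3 rose in dcp5-1 total RNA, NIT1 from 514 to 712 FPKM (0.47 ± 0.08, adjusted p = 5.4e-05), while in Col-0 they passed the test as rising with organelle-encoded genes left out and not as deposited. Of 4 transporters 3 rose and 1 fell in each genotype in total RNA (2 and 1 with length and GC corrected; 3 rose in Col-0 with organelle-encoded genes left out), with PEN3, which exports defence compounds, at 0.63 ± 0.05 in Col-0 and 0.83 ± 0.05 in dcp5-1 (adjusted p of at most 2.0e-10; 0.20 in Col-0 with that correction). All 5 regulators of myrosin and guard cells rose in Col-0 total RNA (4 with that correction), among them the vacuolar syntaxin gene VAM3 (0.56 ± 0.05, adjusted p = 1.4e-09) and FAMA, annotated as FMA, the factor that drives guard cell and myrosin cell identity.

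Marker lists moved with genotype and time. Of 8 guard cell markers, all detected, AT1G22690 gave 80.5 to 92.9% of the summed level, so the sum is given without it. The other 7 summed to between 55.4 and 61.8 FPKM in Col-0 total RNA and between 58.3 and 60.8 FPKM in dcp5-1 at T0, with overlap, and to between 85.6 and 90.4 FPKM and between 65.9 and 72.3 FPKM at T15, without overlap. AT1G22690 itself lay between 538 and 723 FPKM in Col-0 and between 449 and 474 FPKM in dcp5-1 at T0, and between 481 and 485 FPKM and between 415 and 437 FPKM at T15. In total RNA 2 of the 8 were lower in dcp5-1 at T0, and FMA was not among them (15.7 against 15.5 FPKM). With organelle-encoded genes left out of the scaling, 3 were higher and 1 lower. At T15 5 were lower (6 in that scaling). In polysomal RNA 4 were lower at T0 (2 higher and 2 lower in that scaling) and 7 at T15. As deposited, 48.1% of all genes differed in either direction in total RNA at T0 and 50.0% at T15. In polysomal RNA 45.9% and 44.7% did. TGG1 was higher in dcp5-1 at T15, and the part of guard cells in its level was not tested.

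Leaf markers changed with time in dcp5-1 as well. The 5 of them, with RBCS1A listed at 0 everywhere, summed to between 14010 and 17730 FPKM in Col-0 total RNA at T0 and between 13140 and 13770 FPKM at T15. In dcp5-1 the sum lay between 8409 and 9007 FPKM at T0 and between 12000 and 12880 FPKM at T15. CAB2 gave 23.7 to 48.8% of these sums. Without it, the Col-0 sum did not fall, with 7443 to 9933 FPKM at T0 and 9925 to 10470 FPKM at T15. In dcp5-1 it was 4391 to 4611 FPKM and 8501 to 9096 FPKM. With organelle-encoded genes left out of the scaling, the full Col-0 sum was 13770 to 15050 FPKM at T0 and 14750 to 15230 FPKM at T15. The gap between the genotypes was smaller at T15 with and without CAB2. Of 5 root markers, PYK10 gave 98.8 to 99.7% of the sum and lay between 1622 and 1886 FPKM in Col-0 total RNA and between 2130 and 2193 FPKM in dcp5-1 at T0, and between 1513 and 1607 FPKM and between 3251 and 3307 FPKM at T15. The 4 others summed to between 19.7 and 22.9 FPKM in Col-0 and between 16.0 and 16.7 FPKM in dcp5-1 at T0, and to between 8.26 and 9.17 FPKM and between 10.9 and 12.1 FPKM at T15. They were thus lower in dcp5-1 than in Col-0 at T0, unlike PYK10, and higher at T15. The 4 seed markers summed to between 19.6 and 23.8 FPKM in Col-0 total RNA and between 0.980 and 1.35 FPKM in dcp5-1 at T0, and to between 9.41 and 11.1 FPKM and between 3.51 and 4.74 FPKM at T15. The part of cell-type composition in the results above was not tested.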

How the data were processed

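RNA sequencing of 24 samples in 8 groups was deposited as 1 table with a value per gene and library. The table names no unit. Its values are FPKM, fragments scaled by transcript length and library depth, as the authors deposited them, which was read from the values: low values were whole multiples of what 1 fragment is worth. Bowtie and the build TAIR10 are named per the submitters' processing notes, while version, counter and scaling were not given in the sources used here. For each library 1 fragment was taken as the step per transcript length minus 236 to 274 bases. Of the low values 99.3 to 100% then lay within 0.1 of a whole number, and each library came to between 14700000 and 19320000 fragments. These numbers gave depth and counting error and entered no test.

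All 8 genes and the lists of other genes were chosen with earlier results of these data known. Libraries carry the number of their column, which the labels do not tie to a sample's replicate number, and columns marked IP were read as polysomal RNA. A line without values was left out. Symbols, lengths, positions and sequences came from the RefSeq TAIR10.1 annotation, which holds 99.2% of the identifiers. Replicate libraries differed beyond sampling noise, with a mean chi-square per gene of 1.58 to 19.8.

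Genes that reached 1 FPKM in 3 or more libraries were tested, which left 20964 genes or 55% of the table. limma 3.58.1 in R 4.3.3 was fitted once to log2(FPKM + 1) of all 8 groups, with a mean-dependent, robust prior and 16 residual degrees of freedom. Tests were two-sided, p-values were adjusted over all 20964 genes by Benjamini and Hochberg, and the threshold was 0.05. On this scale the change of genes with low levels is understated. The code was tested on simulated data. Other settings were pseudocounts of 0.1 and 5 FPKM, no filter, median-of-ratios scaling, scaling without organelle-encoded genes, values corrected for their trend on length and GC content of the transcript (splines with 6 and 4 degrees of freedom, transcripts of at least 300 bases), a fit of only the groups compared, limma without trend and robust prior, a replicate block, and each of the 24 libraries left out in turn. Applying them to genes other than the 8 was decided after seeing the data. All 8 genes are named. Of each role group up to 2 rising and 2 falling genes with the smallest p were candidates, and the 5 genes most like ESM1 and TGG2 were ranked by Pearson's r over the 8 group means. Sequences were compared with Biopython 1.88, and figures drawn with matplotlib 3.10.9.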

Additional observations from a re-analysis of the deposited data

Results flagged for a closer look

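The change from T0 to T15 differed between dcp5-1 and Col-0 in 7 cases among the genes tested, each by limma's test of the difference itself on the log2(FPKM + 1) scale. In total RNA the difference, dcp5-1 minus Col-0, was 0.97 ± 0.14 for ESP (SE, 3 libraries per group, adjusted p = 4.6e-05). All T15 libraries of ESP lay below its T0 libraries in Col-0 and above them in dcp5-1. The difference was -0.33 ± 0.06 for MVP1 (adjusted p = 0.00071), which rose in Col-0, and 0.27 ± 0.06 for TGG1 (adjusted p = 0.0038), which rose in both genotypes. For NSP1 it was 0.45 ± 0.15 (adjusted p = 0.031). In polysomal RNA the difference was 0.60 ± 0.14 for ESP (adjusted p = 0.0080) and 0.36 ± 0.08 for NSP5 (adjusted p = 0.0059). For the polysome association of MVP1 it was 0.35 ± 0.09 (adjusted p = 0.026). With organelle-encoded genes left out of the scaling, the values of TGG1 and NSP1 in total RNA and of NSP5 in polysomal RNA missed the threshold, as given with these genes above.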

How the results depend on the processing

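Of 75 calls on the 8 genes (MBP1 was not tested), 62 kept direction and threshold in each of the 33 alternatives, and 2441 of 2475 single comparisons of a call with an alternative did. The others are given beside their genes. In 24 alternatives 1 library is left out, often one outside the groups compared, where the difference cannot move. The share of comparisons kept thus overstates how firm the calls are. Calls of TGG2, and of ESM1 in dcp5-1, use levels behind their choice. The cause of these changes was not tested. Counts of members called kept within 1.5 times the reported count in 615 of 627 cases and those of other pathway genes in 622 of 627. With organelle-encoded genes left out of the scaling, the NaCl change differed between the genotypes for 2 instead of 4 members in total RNA and for 1 instead of 2 in polysomal RNA. In a fit of only the groups compared, the genotype difference of association was called for 1 instead of 2 members at T0 and for 0 instead of 1 (NSP5) at T15. The latter count ran from 0 to 1 with single libraries left out, as did that of the difference of the association changes (MVP1), which was 0 with length and GC corrected. Among other pathway genes, the number whose NaCl change in total RNA differed by genotype went from 14 to 9 and that of association between genotypes at T0 from 8 to 5 in the fit of only the groups compared. Their association counts with NaCl went from 14 to 22 in Col-0 and from 11 to 17 in dcp5-1 without organelle-encoded genes, and that between genotypes at T15 went from 10 to 6 with length and GC corrected.

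The following log2 differences turned sign. Scaling without organelle-encoded genes gave, for dcp5-1 against Col-0 at T0 in total RNA, 0.031 for TGG2, 0.10 for NSP1, 0.0078 for GTR2, 0.0019 for VPS9A and 0.045 for SCRM2. For the difference of the NaCl changes it gave -0.011 for NSP5 and -0.018 for PEN3 in total RNA, -0.098 for MVP1 in polysomal RNA and 0.0076 for TGG1 in association. It also gave 0.035 for NSP1 association between genotypes at T15, 0.14 for PYK10 with NaCl in Col-0 total RNA, and -0.24 for TGG2 polysomal against total RNA in Col-0 at T15. Correcting for length and GC content gave, for NaCl in total RNA, -0.012 for NSP5 and -0.015 for GTR2 in Col-0 and -0.012 for MVP1 in dcp5-1. It gave 0.0026 for NSP1 between genotypes at T0 in total RNA, -0.0082 for MVP1 as the difference of polysomal changes, 0.042 for PEN3 association in Col-0, and -0.24 in Col-0 and -0.13 in dcp5-1 for TGG2 polysomal against total RNA at T15.

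With 1 library left out at a time, values that crossed 0 ran as follows. For NaCl in total RNA they ran from -0.032 to 0.19 for NSP1 and from -0.034 to 0.067 for NSP5 in Col-0, and from -0.018 to 0.056 for MVP1 in dcp5-1. For NaCl in Col-0 polysomal RNA they ran from -0.053 to 0.076 for ESP and from -0.096 to 0.024 for NSP1. Between genotypes they ran from -0.015 to 0.26 for ESP in total RNA at T0, from -0.0095 to 0.093 for NSP1 in polysomal RNA at T0, and from -0.025 to 0.067 for NSP5 in polysomal RNA at T15. In association between genotypes they ran from -0.046 to 0.0059 for TGG1 and from -0.015 to 0.26 for ESP at T0, and from -0.13 to 0.044 for NSP1 at T15. The difference of polysomal changes of MVP1 ran from -0.0088 to 0.028, and TGG2 polysomal against total RNA in Col-0 at T15 from -0.011 to 0.044.

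A replicate block on the column numbers left the member counts unchanged in all 19 comparisons, with 4 members called for NaCl in Col-0 total RNA in both fits. It moved the counts over all genes by factors of 0.924 to 0.999. The deviations of 84 same-numbered pairs correlated between -0.26 and 0.30, with 16 over 0.1. Labels do not tie these numbers to replicates, so such correlations cannot tell whether the samples were paired. Total and polysomal RNA may share seedlings. The tests between fractions and of polysome association treated all libraries as independent. Depth limits MBP1, and 3 libraries per group limit the remaining values.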
